A study of Homo sapiens with 7 samples.

Results

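The genes described here are 9 members of the p53 and GADD45 growth arrest programme: CDKN1A, MDM2, CCNG1, BTG2, AEN, TP53INP1, GADD45A, GADD45B and GADD45G. They were taken by gene symbol from the 60662 genes of the deposited count files, and each symbol matched 1 row. They were picked with their values in the 3 contrasts of the study already known, so their levels and changes are given as a description, with no test of their own. The study measured how RNA levels changed when STAG2, a component of cohesin (the complex that tethers sister chromatids and forms chromatin loops), was inactivated or restored in human T-cell acute lymphoblastic leukaemia lines. PF382 cells in which STAG2 was knocked out by delivering Cas9 and guide RNA as a ribonucleoprotein gave 3 libraries (STAG2KO), and untreated wild-type PF382 cells gave 2 (WT). MOLT-14 cells transduced with STAG2 gave 1 library (STAG2), and MOLT-14 cells transduced with an empty vector gave 1 (EV). The labels do not say whether the PF382 libraries are clones, pools or repeat cultures, so the spread between libraries, which is all that a p-value measures here, may be technical.

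The transcription factor p53 is held low by MDM2, a ubiquitin ligase that is itself a p53 target, so that the pair forms a negative feedback loop. When DNA is damaged, p53 switches on inhibitors of the cell cycle, repair genes and death genes. The GADD45 proteins are small stress sensors that bind cell cycle kinases, PCNA and the kinase MAP3K4. GADD45A is a p53 target, while GADD45B and GADD45G are known as targets of other stress and cytokine signals. In T cells, GADD45B and GADD45G act upstream of p38 kinase.

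The libraries held 65262329 to 93970572 counts in STAG2KO, 32609485 to 33145516 in WT and 38678382 to 45013450 in MOLT-14, and 3 counts correspond to between 0.0319 and 0.0920 CPM (reads of a gene relative to the TMM-adjusted size of its library). STAG2 stood at 256, 179.7 and 195 CPM in STAG2KO, against 334 and 567 CPM in WT, a log2 change of -1.13 ± 0.26 (SE, edgeR adjusted p 0.0218, 0.0757 without STAG2KO replicate 2 and 0.0773 without STAG2KO replicate 3). The knockout libraries thus still held STAG2 RNA. In MOLT-14, STAG2 had 136.9 CPM in the STAG2 library and 1.15 CPM in the EV library. The 7 T-lineage markers summed to between 1553 and 2543 CPM in every library, though PTCRA, the pre-T-cell receptor chain, was at or below 0.179 CPM in MOLT-14. The 4 myeloid markers summed to at most 0.471 CPM and the 3 erythroid markers to at most 0.0796 CPM. The 4 B-lineage markers summed to between 3.83 and 41.4 CPM with MS4A1 at 0, and the 4 stromal or epithelial markers to between 1.15 and 22.8 CPM. Small RNA genes took 11.96% to 13.98% of counts in STAG2KO and 14.87% to 20.97% in WT, and 9.27% in the MOLT-14 STAG2 library and 4.87% in the EV library. Mitochondrial genes took 0.222% to 0.322% in STAG2KO and 0.550% to 0.600% in WT, and 1.43% in the MOLT-14 STAG2 library and 4.92% in the EV library. The part of these shares in the results below was not tested. In bulk RNA, fewer cells in a given state and less RNA per cell cannot be told apart.

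Windows of up to 250 bases before the RefSeq gene start (GRCh38.p14) were found for 7 of the 9 genes, and were searched on both strands for the p53 response element, a pair of decamers that p53 binds. The second promoter of MDM2 lies in its first intron and is the textbook p53-driven one. It is shown here because it holds 2 matches to the element, in capitals, with 2 mismatches at chr12:68808923-68808942 and 3 mismatches at chr12:68808961-68808980.
MDM2, second promoter, chr12:68808767-68809001, plus strand: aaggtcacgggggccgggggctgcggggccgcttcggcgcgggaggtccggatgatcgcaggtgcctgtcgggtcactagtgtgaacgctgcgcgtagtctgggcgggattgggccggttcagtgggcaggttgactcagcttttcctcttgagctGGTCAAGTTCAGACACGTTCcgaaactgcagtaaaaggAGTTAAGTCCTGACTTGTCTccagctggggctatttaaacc
AEN held 1 match with 2 mismatches, at chr15:88621306-88621325, shown with the matching bases in capitals. AEN is the member that rose in STAG2KO, and the site lies just before the RefSeq start but within an exon of the GENCODE 29 annotation.
AEN, element, plus strand: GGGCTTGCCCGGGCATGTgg
Among the 27305 genes with such a window, 0.542% held a match with at most 2 mismatches and 4.31% one with at most 3. These shares used only the first listed window of each gene, whereas every window of the members was searched, 4 for MDM2. The shares are therefore not like for like with the MDM2 matches. A match describes the letters only and is not a site of binding, and no match says only that these letters are not in the window.

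The windows of GADD45B and GADD45G are shown because these members had the largest ratios between the MOLT-14 libraries. Capitals mark the CCAAT box, the TATA box (searched as TATAAA) and the E-box CACGTG, on either strand. Over the first listed window of each gene, 33.04% held CCAAT, 11.1% TATAAA and 6.49% CACGTG.
GADD45B, chr19:2475877-2476121, plus strand: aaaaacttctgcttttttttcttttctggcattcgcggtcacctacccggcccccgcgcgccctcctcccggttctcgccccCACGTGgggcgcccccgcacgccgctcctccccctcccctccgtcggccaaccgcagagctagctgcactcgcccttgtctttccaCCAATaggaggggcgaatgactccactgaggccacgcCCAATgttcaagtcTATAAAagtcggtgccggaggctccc
GADD45G, chr9:89604762-89605011, plus strand: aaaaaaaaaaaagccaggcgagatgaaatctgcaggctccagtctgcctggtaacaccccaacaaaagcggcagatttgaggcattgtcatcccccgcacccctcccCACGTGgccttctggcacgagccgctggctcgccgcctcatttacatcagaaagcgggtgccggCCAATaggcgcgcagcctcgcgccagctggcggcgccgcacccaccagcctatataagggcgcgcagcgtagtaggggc
Both windows held CACGTG and CCAAT, and the GADD45B window also held TATAAA. No p53 element with at most 3 mismatches was in either window.

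The comparison of STAG2KO with WT asks which genes of the programme differ when STAG2 is inactivated in PF382. The programme did not move as one block. AEN, a nuclease, rose, whereas CCNG1, TP53INP1 and GADD45B fell, and CDKN1A, MDM2, BTG2, GADD45A and GADD45G did not pass the test across all genes (edgeR quasi-likelihood, adjusted p under 0.05). All 9 members were tested, and 1 was higher and 3 were lower, where the background was 15.8% higher and 14.6% lower, together 30.4%, of 17442 genes. The libraries of the groups did not overlap for 6 members (AEN and BTG2 higher, CCNG1, TP53INP1, GADD45A and GADD45B lower), against 60.0% of all genes tested. The median log2 change was -0.70 over the members and -0.02 over all genes tested. Since the members were picked on this contrast, nothing is read from these counts. With upper-quartile scaling the median over all genes was -0.18, and higher genes made up 33.8% of the calls, in place of 52.0%. The 4 calls held their side of the threshold without any 1 STAG2KO library and under the other scalings and filters run. A fit without a WT library keeps only 1, so its spread comes from STAG2KO alone. In such fits only the changes are read, and the 4 calls kept their direction. The library titles carry a code, SA in both WT libraries and 1 STAG2KO library and SB in the other STAG2KO libraries, whose meaning the labels do not give. As no WT library has SB, a fit with that code as a term sets STAG2KO replicate 1 alone against the WT libraries. With that code as a term, a fit added after the data were seen, AEN (1.73, edgeR adjusted p 0.0556) and TP53INP1 (-1.66, 0.0569) missed the threshold with changes of similar size, while CCNG1 and GADD45B passed. In that fit 438 genes were called in all, and STAG2 itself, at -0.84, missed the threshold (edgeR adjusted p 0.199).

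**Figure D1:**
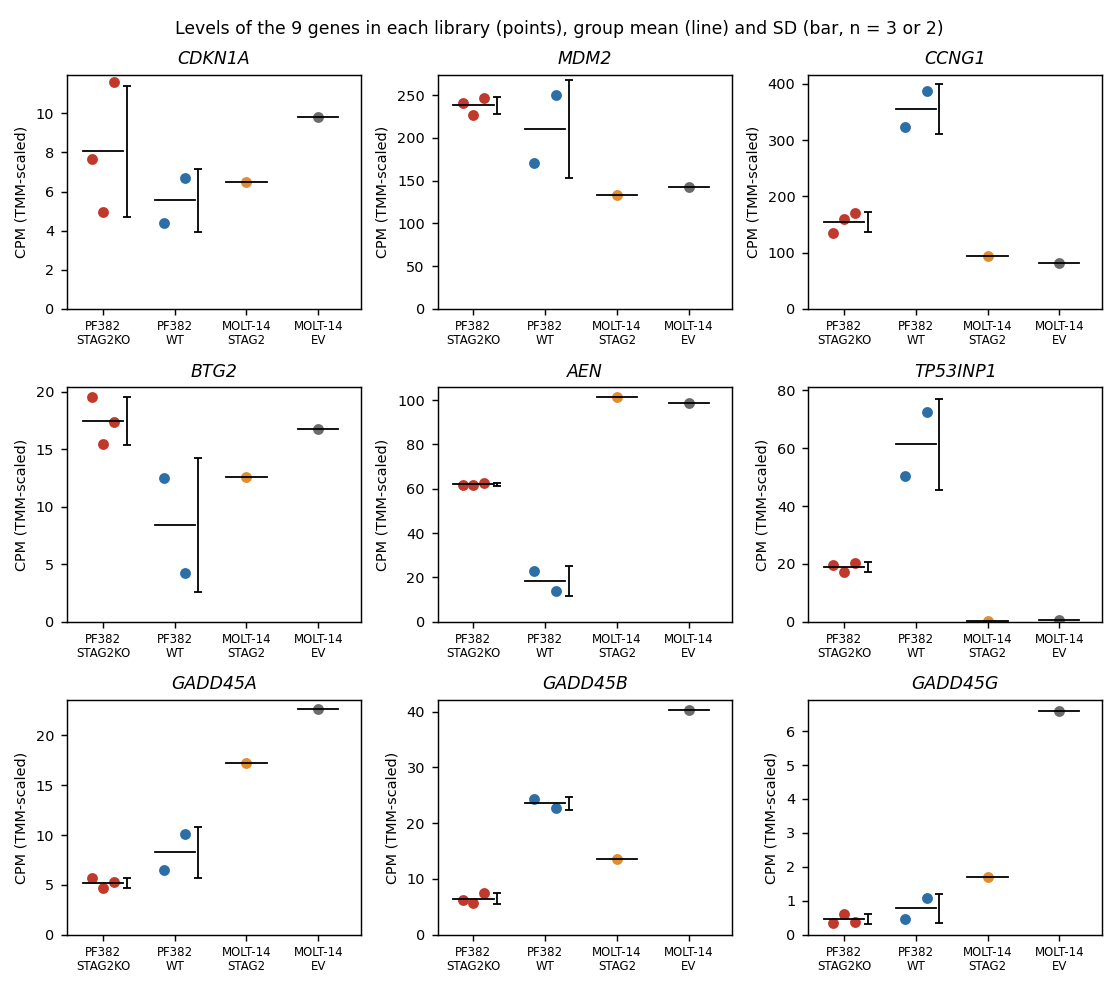
Each panel shows 1 gene. Points are TMM-scaled CPM of single libraries on a linear axis from 0, by group, with a line at the group mean and a bar for the SD (n = 3 in PF382 STAG2KO and 2 in PF382 WT, none in MOLT-14). AEN at 61.6 to 62.8 CPM in PF382 STAG2KO stands above both WT libraries, GADD45B at 5.58 to 7.44 CPM stands below them, and TP53INP1 lies under 1 CPM in both MOLT-14 libraries.

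The feedback and arrest genes were first. CDKN1A (ENSG00000124762.13, chr6:36676460-36687339, GRCh38) encodes p21, the inhibitor of cyclin-dependent kinases that carries the p53-driven G1 arrest. It had 7.64, 4.93 and 11.6 CPM in STAG2KO, against 4.41 and 6.70 CPM in WT. The groups overlapped, and the highest STAG2KO library set most of the difference. The log2 change was 0.51 ± 0.40 (SE), and 0.14 without STAG2KO replicate 3. MDM2 (ENSG00000135679.25, chr12:68808176-68850686) had 241, 227 and 246 CPM in STAG2KO, against 170.2 and 251 CPM in WT. The STAG2KO libraries lay between the WT libraries, and the log2 change was 0.15 ± 0.18 (SE). Its direction depended on the WT library kept, since it was -0.09 without WT replicate 1 and 0.48 without WT replicate 2. With upper-quartile scaling it was -0.01. MDM2 had fractional counts in 7 of 7 libraries, as had the processed pseudogene AC025423.2 within it, so its level is uncertain where reads were divided between copies, while the other 8 members had whole counts.

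CCNG1 (ENSG00000113328.19, chr5:163437569-163446151) encodes cyclin G1, a p53 target that recruits a phosphatase to MDM2. It had 135, 159 and 169.8 CPM in STAG2KO, against 324 and 388 CPM in WT. Every STAG2KO library was lower than either WT library. The log2 change was -1.23 ± 0.15 (SE), a 2.35-fold lower level. BTG2 (ENSG00000159388.6, chr1:203305491-203309602), an antiproliferative protein that binds the CCR4-NOT deadenylase, had 19.5, 15.4 and 17.4 CPM in STAG2KO, against 12.5 and 4.27 CPM in WT. The groups did not overlap, but the WT libraries were spread more widely than the STAG2KO libraries. Its log2 change was 1.03 ± 0.42 (SE). This value depended on the WT library kept, at 2.01 without WT replicate 1 and 0.48 without WT replicate 2. BTG2 passed the threshold with DESeq2 (1.02) and with no filter on low counts (1.10).

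AEN and TP53INP1, both p53 targets linked to cell death, went opposite ways. AEN (ENSG00000181026.15, chr15:88621296-88632282), a nuclease that enhances apoptosis, had 61.8, 61.6 and 62.8 CPM in STAG2KO, against 23.1 and 13.7 CPM in WT. The STAG2KO libraries were nearly equal and all lay above both WT libraries. This was a log2 change of 1.73 ± 0.22 (SE), a 3.31-fold higher level. TP53INP1 (ENSG00000164938.14, chr8:94925972-94949411, minus strand), a stress protein that acts with p53 and in autophagy, had 19.7, 17.1 and 20.4 CPM in STAG2KO, against 50.3 and 72.6 CPM in WT. Every STAG2KO library was lower than either WT library. The log2 change was -1.72 ± 0.18 (SE) for TP53INP1, a 3.29-fold lower level. NDUFAF6 spans the whole of TP53INP1 on the opposite strand, and it had 1114 to 1491 raw counts in STAG2KO and 457 and 312 in WT. These are not scaled for depth, and cannot be read as a change. The STAG2KO libraries held 65262329 to 93970572 counts, against 32609485 to 33145516 in WT. The strand setting of the counting is not given in the sources used here, so the share of reads exchanged between NDUFAF6 and TP53INP1 was not tested.

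All 3 GADD45 genes had lower mean levels in STAG2KO than in WT, under each scaling run. GADD45B passed the test under each of them, and GADD45A passed only under some. GADD45B (ENSG00000099860.9, chr19:2476122-2478259) had 6.27, 5.58 and 7.44 CPM in STAG2KO, against 24.3 and 22.8 CPM in WT. The replicates of each group were close together and the groups were far apart. The log2 change was -1.90 ± 0.17 (SE), a 3.73-fold lower level. GADD45A (ENSG00000116717.13, chr1:67685061-67688338) had 5.63, 4.69 and 5.26 CPM in STAG2KO, against 6.47 and 10.1 CPM in WT. The groups did not overlap, though the lower WT library was near the highest STAG2KO library. The log2 change of GADD45A was -0.70 ± 0.25 (SE), at -0.98 without WT replicate 1 and -0.32 without WT replicate 2. It missed the threshold in the fit used here, but passed with upper-quartile scaling (-0.86) and with DESeq2 (-0.71). GADD45G (ENSG00000130222.11, chr9:89605013-89606555) was the scarcest member in PF382, with 0.344, 0.613 and 0.382 CPM in STAG2KO, against 0.469 and 1.07 CPM in WT. These rest on 21 to 53 counts in STAG2KO and 15 and 33 counts in WT, and the groups overlapped. Its log2 change was -0.80 ± 0.49 (SE), and -0.06 without WT replicate 2.

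Levels can be set against each other only per length, and CPM per kilobase of the length implied by the deposited FPKM is used here. Summed on this scale, the 3 GADD45 genes had 12.5, 10.6 and 14.4 CPM per kilobase in STAG2KO, against 31.9 and 37.1 CPM per kilobase in WT. GADD45B held most of this sum in WT, with 26.2 ± 0.899 CPM per kilobase (SD, n = 2), and 7.10 ± 1.71 in STAG2KO (SD, n = 3). The order of the members on this scale thus differed between the groups. In STAG2KO the highest were MDM2 with 95.4 ± 5.64 and CCNG1 with 88.0 ± 9.72 CPM per kilobase (SD, n = 3), whose ranges overlapped, and AEN followed with 22.5 ± 0.529. In WT, CCNG1 led with 194.7 ± 24.5 CPM per kilobase (SD, n = 2), MDM2 had 83.4 ± 16.2, and AEN had 7.01 ± 3.13. GADD45G was the lowest member in both groups, with 0.533 ± 0.171 CPM per kilobase in STAG2KO and 0.872 ± 0.498 in WT. Between these ends stood GADD45B, BTG2 with 7.06 ± 0.825 CPM per kilobase in STAG2KO, GADD45A with 4.87 ± 0.512, CDKN1A with 4.21 ± 1.76 and TP53INP1 with 3.52 ± 0.323. In that order the libraries of GADD45A lay below those of BTG2, and the other neighbours overlapped. In WT the middle order was GADD45B, TP53INP1 with 11.3 ± 2.92 CPM per kilobase, GADD45A with 7.41 ± 2.31, AEN, BTG2 with 3.43 ± 2.26 and CDKN1A with 2.99 ± 0.937, where GADD45B did not overlap its neighbours, TP53INP1 and GADD45A were close at 9.22 and 9.05 CPM per kilobase in their nearest libraries, and the others overlapped. TP53INP1 was below AEN in every STAG2KO library, while in WT it was level with AEN in replicate 1, both at 9.22 CPM per kilobase, and above it in replicate 2.

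In MOLT-14 the comparison runs the other way, from added STAG2 to empty vector, with 1 library each, so it has no replicate check and no test. The intervals given are exact 95% binomial intervals of counting error only. Of the 8 members with at least 5 CPM in either library, 3 were at least 1.5-fold lower with STAG2 (CDKN1A, GADD45B and GADD45G) and 0 were at least 1.5-fold higher. The background was 3.19% lower and 3.78% higher among 11115 genes, and nothing is read from the members' count, as they were picked on this contrast too. The median log2 ratio was -0.40 over the members and 0.03 over all genes, while library totals with no scaling factor moved the median over all genes to -0.15. With such totals 224 genes were higher and 863 lower, in place of 420 higher and 355 lower, and BTG2 became the fourth member at least 1.5-fold lower (-0.59).

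GADD45B had 13.6 CPM in the STAG2 library, against 40.3 CPM in the EV library, a log2 ratio of -1.57 (interval -1.70 to -1.44). GADD45G had 1.69 CPM in the STAG2 library, against 6.60 CPM in the EV library, from 85 and 322 counts, and its log2 ratio was -1.94 (interval -2.33 to -1.61). GADD45A had 17.2 CPM in the STAG2 library, against 22.6 CPM in the EV library, a log2 ratio of -0.39 (interval -0.53 to -0.27). All 3 GADD45 genes were thus lower in the STAG2 library under each scaling run. Per kilobase their sum was 31.4 CPM in the STAG2 library and 67.8 CPM in the EV library. GADD45A led the family in the STAG2 library, with 16.3 CPM per kilobase and 13.2 for GADD45B, whereas in the EV library GADD45A had 22.5 CPM per kilobase and GADD45B 37.5.

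CDKN1A had 6.49 CPM in the STAG2 library, against 9.81 CPM in the EV library, a log2 ratio of -0.59 (interval -0.80 to -0.39). BTG2 had 12.6 CPM in the STAG2 library, against 16.7 CPM in the EV library, a log2 ratio of -0.41 (interval -0.57 to -0.26). MDM2 had 133 CPM in the STAG2 library, against 143 CPM in the EV library, a log2 ratio of -0.11 (interval -0.15 to -0.06). These 3 were lower with STAG2, by less than 1.5-fold for BTG2 and MDM2. CCNG1 was the member whose interval lay above 0, with 93.9 CPM in the STAG2 library, against 81.4 CPM in the EV library, and a log2 ratio of 0.21 (interval 0.15 to 0.27). AEN had 101 CPM in the STAG2 library, against 98.8 CPM in the EV library, and TP53INP1 had 0.378 CPM, against 0.492 CPM, from 19 and 24 counts. The intervals of AEN (-0.02 to 0.09) and TP53INP1 (-1.33 to 0.55) held 0.

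**Figure D2:**
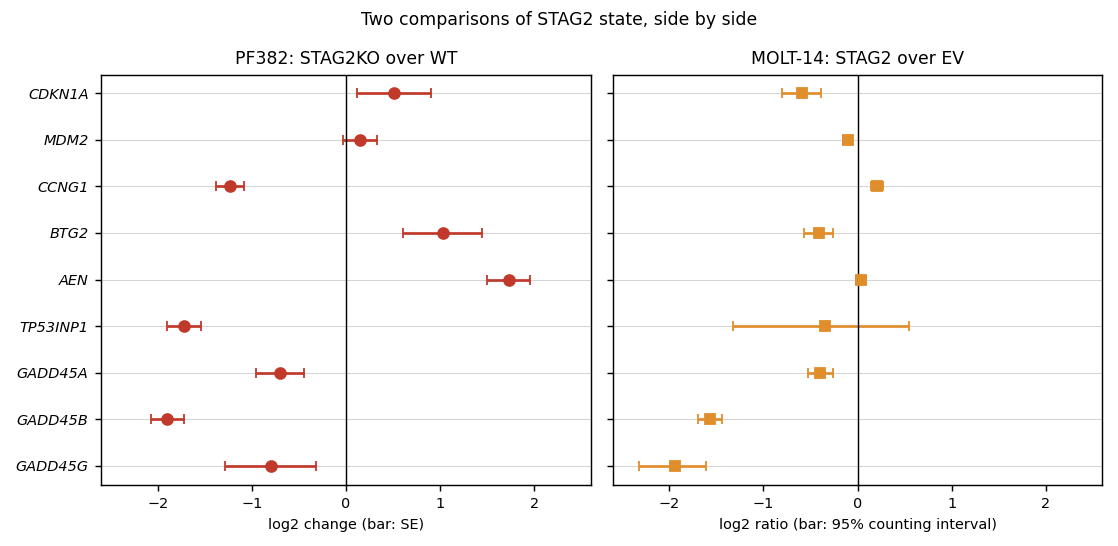
Log2 changes of the 9 genes in PF382 STAG2KO over WT with standard errors (left) and log2 ratios in MOLT-14 STAG2 over EV with 95% counting intervals (right), on shared rows. GADD45B lies at -1.90 on the left and -1.57 on the right, and AEN at 1.73 on the left and 0.04 on the right.

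The STAG2-low state is STAG2KO in PF382 and EV in MOLT-14, so a shared direction appears as opposite signs of these log2 values. The name is relative within each line. STAG2 RNA was at 179.7 to 256 CPM in STAG2KO, above the 136.9 CPM of the MOLT-14 STAG2 library, and at 1.15 CPM in EV. GADD45B had values of -1.90 in PF382 and -1.57 in MOLT-14, and GADD45A had -0.70 and -0.39. GADD45A and GADD45B were therefore lower in the STAG2-low libraries of PF382 and higher in the STAG2-low library of MOLT-14. BTG2 had 1.03 in PF382 and -0.41 in MOLT-14, and CCNG1 had -1.23 and 0.21, so the STAG2-low libraries of both lines were higher for BTG2 and lower for CCNG1. The MOLT-14 ratio of CCNG1 was 0.03 with library totals, so its direction there rests on the scaling. AEN, with the largest positive change in PF382, had an interval holding 0 in MOLT-14. None of these differences between the lines was tested, as MOLT-14 has 1 library in each state.

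All 9 genes had counts in both lines, at levels that differed for some of them. Among 20100 genes tested, 55.4% differed between the 5 PF382 and the 2 MOLT-14 libraries, and so did 7 of the 9 members. MDM2, CCNG1 and TP53INP1 were higher in PF382, and AEN, GADD45A, GADD45B and GADD45G were lower in PF382. The median log2 difference was -0.26 over the members and -0.05 over all genes tested. The lines were among the contrasts on which the members were picked, and nothing is read from this count. The fit took the spread from PF382, so the MOLT-14 libraries were assumed to vary like those of PF382.

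TP53INP1 differed most. It had 17.1 to 72.6 CPM over the PF382 libraries, with a median over the STAG2KO libraries of 19.7 CPM, against 0.378 and 0.492 CPM in MOLT-14. Its log2 difference was 6.30 ± 0.27 (SE), a 78.9-fold higher level in PF382, and NDUFAF6 on the opposite strand had 733 counts in the STAG2 library and 638 counts in the EV library of MOLT-14. CCNG1 had a log2 difference of 1.42 ± 0.15 (SE), 2.68-fold higher in PF382, with no overlap between the lines. MDM2 had a log2 difference of 0.70 ± 0.17 (SE), 1.63-fold higher in PF382, also with no overlap, and it missed the threshold without the MOLT-14 STAG2 library (0.65, edgeR adjusted p 0.0566).

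AEN was 2.96-fold lower in PF382, with a log2 difference of -1.57 ± 0.18 (SE). The STAG2KO libraries of PF382, at 61.6 to 62.8 CPM, lay nearer to the MOLT-14 levels of 101 and 98.8 CPM than the WT libraries did. GADD45A was 3.01-fold lower in PF382 with no overlap, at -1.59 ± 0.20 (SE). GADD45G was 5.67-fold lower in PF382 with no overlap, at -2.50 ± 0.38 (SE), but without the EV library its value was -1.53 and it missed the threshold (edgeR adjusted p 0.0519). GADD45B, at -0.93 ± 0.15 (SE), overlapped between the lines, since the WT libraries of PF382 lay between the MOLT-14 libraries. Without the EV library its difference was -0.15 (edgeR adjusted p 0.595), and in a fit with cell line and STAG2 state as additive terms it was -1.46 (edgeR adjusted p 0.0839). CDKN1A, at -0.25 ± 0.35 (SE), and BTG2, at -0.26 ± 0.37 (SE), overlapped between the lines. Without WT replicate 1 the value of BTG2 was -0.77.

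CCNG1 differed from the other members in a readout that the choice of genes did not use. The transcript length implied by its deposited FPKM and counts was 1731 to 1828 bases in the 5 PF382 libraries, against 951 bases in the STAG2 library and 1069 bases in the EV library of MOLT-14. The implied lengths of the lines did not overlap, and their ratio was 1.77. For the other 8 members that ratio lay between 0.865 for GADD45B and 1.05 for GADD45A. The implied length is an average over the transcripts that RSEM estimated, so it moves with the mix of isoforms assigned to the gene. On the per-length scale CCNG1 was 1.49-fold higher in PF382 than in MOLT-14, less than the 2.68-fold of the fit on counts, and the STAG2KO libraries, at 77.9 to 97.3 CPM per kilobase, overlapped the MOLT-14 libraries, at 98.8 CPM per kilobase with STAG2 and 76.1 CPM per kilobase with EV.

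**Figure D3:**
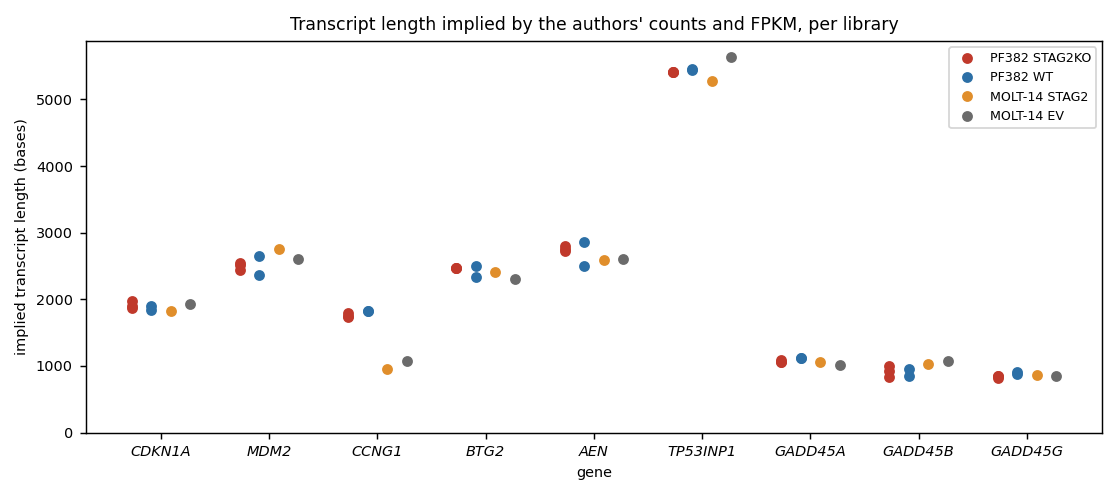
Implied transcript length of each gene, in bases, by library and group. CCNG1 lies between 1731 and 1828 bases in PF382 and at 951 and 1069 bases in the STAG2 and EV libraries of MOLT-14, whereas the other genes had similar lengths in both lines.

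The rest of the pathway was described with 5 lists. These were p53 regulators, p53 targets in arrest, repair and metabolism, p53 targets in apoptosis, the nearest family relatives of the members, and partners. Most partners are proteins that p21 or the GADD45 proteins bind. The partner list also holds CNOT7 and CNOT8, of the deadenylase that BTG2 binds, and the kinase GAK, which are not partners of p21 or GADD45. The 5 lists hold 83 genes that are not members, of which 76 were tested in PF382. In STAG2KO 14 rose, 11 fell and 51 did not pass, so that 32.9% were called, near the background of 30.4%. The median log2 change was -0.05. By list, 2 of 14 regulators rose and 2 fell, with a median of -0.14. Of 27 arrest, repair and metabolism targets 1 rose and 4 fell, with a median of 0.11, and of 12 apoptosis targets 2 rose and 2 fell, with a median of -0.06. Of 11 relatives 2 rose and 4 fell, with a median of -0.69. Of 13 partners 7 rose and the other 6 did not pass, with a median of 0.52.

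ATR, the kinase of replication stress, rose to 115 ± 10.2 CPM in STAG2KO, against 63.0 ± 0.677 CPM in WT (SD, n = 3 and 2, edgeR adjusted p 0.00610). TP53BP1, a repair scaffold, had 129 ± 7.71 CPM in STAG2KO, against 81.6 ± 8.59 CPM in WT (edgeR adjusted p 0.0136). MDM4, the MDM2 relative that also restrains p53, fell to 88.2 ± 8.0 CPM in STAG2KO, against 200.4 ± 7.6 CPM in WT (edgeR adjusted p 0.00299). RPL11, a ribosomal protein that can bind MDM2, had 686 ± 20.5 CPM in STAG2KO, against 927 ± 69.3 CPM in WT (edgeR adjusted p 0.0366).

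Among the p53 targets that act in arrest, repair and metabolism, the signal adaptor TRAF4 rose, with a log2 change of 0.77 (edgeR adjusted p 0.0169). ANKRA2 fell by 0.99 on the log2 scale (edgeR adjusted p 0.00667), DDB2, a sensor of ultraviolet damage, fell by 0.86 (0.00747) and PRKAB1, a subunit of AMP kinase, fell by 0.62 (0.0110). Among the apoptosis targets, BID had a log2 change of 1.04 (edgeR adjusted p 0.00585) and BAX, which permeabilises mitochondria, 0.51 (0.0262). BBC3, which encodes PUMA, had 0.109 ± 0.0726 CPM in STAG2KO, against 1.45 ± 1.36 CPM in WT, and PMAIP1, which encodes NOXA, had 40.6 ± 11.1 CPM, against 71.1 ± 11.1 CPM (edgeR adjusted p 0.0192 and 0.0420). BBC3 was near the floor in STAG2KO replicate 1, at 0.0327 CPM, where 3 counts correspond to 0.0460 CPM. The death genes called thus went both ways, as AEN and TP53INP1 did.

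The nearest relatives of the members were set beside them. BTG1, the relative of BTG2, fell by 1.49 on the log2 scale in STAG2KO (edgeR adjusted p 0.00244), while BTG2 had a positive change. CCNG2, the relative of CCNG1, fell by 0.87 (edgeR adjusted p 0.00922), the direction CCNG1 had. ISG20L2, a nuclease related to AEN, had a log2 change of 1.19 (edgeR adjusted p 0.0033), also the direction of AEN. ISG20, another relative of AEN, went the opposite way, at -1.01 (edgeR adjusted p 0.0172). TOB2, of the BTG family, had 0.43 (edgeR adjusted p 0.0442).

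Among the partners, CDK4, a kinase of G1, had 248 ± 2.90 CPM in STAG2KO, against 87.1 ± 3.98 CPM in WT, a log2 change of 1.48 (edgeR adjusted p 0.00218). CCNE1, a cyclin of the entry into S phase, had a log2 change of 1.38 (edgeR adjusted p 0.00636). GADD45GIP1, which binds GADD45 proteins and works in mitochondrial ribosomes, had 1.05 (edgeR adjusted p 0.00625). The 7 partners called, CNOT7 among them, were all higher in STAG2KO, where GADD45B was lower and CDKN1A did not pass. CDK4, CCNE1 and GADD45GIP1 also passed with upper-quartile scaling and with protein-coding genes only. In each of these fits 10 of the other pathway genes were called higher, in place of 14. Some of the other partners thus missed the threshold there.

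Several of these calls were lost without 1 STAG2KO library, where fewer genes were called in all. Without 1 STAG2KO library or another, TP53BP1, RPL11, TRAF4, PRKAB1, BAX, BBC3, PMAIP1 and TOB2 missed the threshold, with adjusted p of up to 0.141 for RPL11. Without a STAG2KO library their changes kept their direction. BAX, at 0.47 to 0.53, and RPL11, at -0.50 to -0.46, stayed near the full value. PMAIP1 ran more widely, from -1.04 to -0.65, and BBC3 from -4.22 to -3.33. Without WT replicate 1 the log2 change of BBC3 was -2.13 in place of -3.71, and that of PMAIP1 was -0.66 in place of -0.83. TOB2 had 0.39 in place of 0.43 without WT replicate 2. RPL11 and PMAIP1 also missed the threshold in the fit of all 7 libraries (edgeR adjusted p 0.0517 and 0.0529), and RPL11 with no filter on low counts (0.0988). BAX and TOB2 missed it with upper-quartile scaling (0.0904 and 0.157) and with protein-coding genes only (0.0516 and 0.0862). TOB2 also missed it with at least 1 CPM in 2 libraries (0.0761). ATR, MDM4, ANKRA2, DDB2, BID, ISG20L2, BTG1, CCNG2, CDK4, CCNE1 and GADD45GIP1 passed without any 1 STAG2KO library. With the title code as a term, STAG2KO replicate 1 alone is set against WT. In that fit the genes listed in this paragraph kept their direction, and most missed the threshold.

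**Figure D4:**
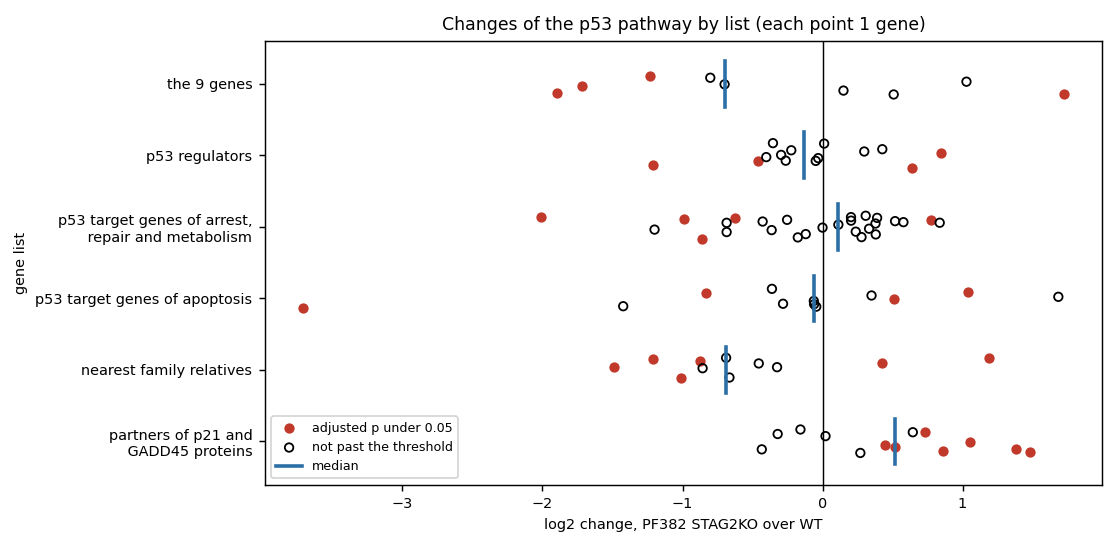
Log2 changes in PF382 STAG2KO over WT for the 9 genes and for each list, 1 point per gene tested, filled where the adjusted p is under 0.05, with a line at each median. The median of the partners lies at 0.52 and that of the relatives at -0.69, while the other lists centre between -0.14 and 0.11.

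In MOLT-14, 70 of the pathway genes had at least 5 CPM in either library, and 4 were at least 1.5-fold higher and 5 at least 1.5-fold lower with STAG2. The background was 3.78% higher and 3.19% lower among 11115 genes. With 1 library in each state, no difference from that background was tested. The lower genes were TNFRSF10B, a death receptor, with a log2 ratio of -1.61, PLK2, a stress kinase, with -1.15, TOB1 with -1.01, ZMAT3, an RNA-binding p53 target, with -0.89, and FAS, a death receptor, with -0.61. The higher genes were the cyclins CCNB1 with a log2 ratio of 0.70, CCNA2 with 0.68 and CCNE1 with 0.68, and NTPCR with 0.62. The calls of the 4 higher genes rest on the scaling. Library totals with no scaling factor lower each MOLT-14 ratio, from -0.59 to -0.77 for CDKN1A. All 4 then fall below 1.5-fold. CDKN1A, GADD45B and GADD45G were lower with STAG2 in the library where CCNB1, CCNA2 and CCNE1 were higher, and no link between them was tested.

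The protein-coding gene whose log2 CPM followed each member most closely over the 7 libraries was sought among 10145 genes, as a description. The libraries fall into 2 lines and 4 groups, so the points share their line and group and are not independent. The closest was POLR1C for AEN with r 0.9998, NGLY1 for TP53INP1 with r 0.999, YIPF2 for CCNG1 with r 0.996 and LRP12 for MDM2 with r 0.995. For BTG2 it was ANGEL2 with r 0.991, for GADD45A GOLGB1 with r 0.988, for GADD45B CARF with r 0.984 and for CDKN1A SCN8A with r 0.923. CDKN1A, whose replicates were spread widely, thus had the loosest match, and GADD45G was below the 5 CPM required.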

How the data were processed

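Total RNA from PF382 and MOLT-14 cells was sequenced, and per the submitters' processing notes the tools were STAR and RSEM (no versions given) and the builds hg38 and GRCh38. The annotation release and strand setting are not given in the sources used here. The authors deposited expected counts per gene (estimated counts, not normalised, per the file headers), FPKM and TPM in 1 file per library. The expected counts were rounded to whole numbers (92.3% to 93.7% were whole already), the deposited FPKM values gave only implied transcript lengths, and the deposited TPM values were not used. The 92 ERCC features were left out. Replicates were numbered in accession order within groups.

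STAG2KO was compared with WT with edgeR 4.0.16 under R 4.3.3 (TMM factors, filterByExpr, quasi-likelihood test, two-sided, Benjamini-Hochberg over all genes, threshold 0.05) on PF382 libraries. The lines were compared on all 7 libraries in 4 groups, averaging the groups of each line. Standard errors were derived from the log2 change and the F statistic. MOLT-14 ratios used a prior count of 2, and genes past the fold needed 5 CPM in either library and a ratio of at least 1.5. Intervals come from 1 library in each state, and they and the floors of 3 counts reflect counting error alone. PCR copies were not marked by molecular identifiers, so the counting error itself may be understated. Gene positions came from GENCODE 29, which held 58587 of 60662 genes, and promoter sequences from RefSeq (GRCh38.p14).

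The members and lists were chosen with earlier results of these data known. The rule named all members, STAG2 and, from each list, the 3 called genes with the smallest adjusted p in each direction, and for likeness the protein-coding gene with the highest r among genes of at least 5 CPM on average. A further gene of the rule is not reported here and was left out of the lists and counts. The genes named in MOLT-14 are all those past the fold, and the motifs and the mismatches allowed were chosen after the sequences were seen. Alternatives were DESeq2 1.42.0 with its size factors, upper-quartile scaling, no filter on low counts, at least 1 CPM in 2 libraries, protein-coding genes only, all 7 libraries in 1 fit, additive terms, leaving out each library, a prior count of 0.5, and library totals. A fit with the title code (SA or SB) as a term was added after the data were seen.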

Additional observations from a re-analysis of the deposited data

Results flagged for a closer look

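GADD45A and GADD45B drew attention because the STAG2-low libraries of the lines moved in opposite directions. In PF382, GADD45B had a log2 change of -1.90 in STAG2KO over WT, with every STAG2KO library lower than every WT library. In MOLT-14, the ratio of the STAG2 to the EV library was -1.57, so the EV library, the STAG2-low one, was higher. GADD45A had a log2 change of -0.70 in STAG2KO over WT and a ratio of -0.39 in MOLT-14. That change missed the threshold in the fit used here, but passed with DESeq2 and with upper-quartile scaling. The difference between the lines was not tested, because MOLT-14 has 1 library in each state.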

How the results depend on the processing

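The 5311 genes called in PF382 numbered 2271 to 6304 when 1 library was left out, with fewer whenever a STAG2KO library was missing. Of the members, 1 was called higher, and 2 with DESeq2, 2 with no filter on low counts and 1 to 2 without 1 library. BTG2 was the added call with DESeq2 and with no filter. Members called lower numbered 3 to 4, with GADD45A the added one, and 2 with the title code as a term. That term, added after the data were seen, left 438 genes called, with 0 members higher (1 at an unadjusted p under 0.05) and 3 other pathway genes higher and 2 lower. Of the other pathway genes, 14 were higher (8 to 20 without 1 library) and 11 lower (18 with upper-quartile scaling, 5 to 16 without 1 library). MDM2 changed sign in STAG2KO over WT, to -0.0091 with upper-quartile scaling and -0.094 without WT replicate 1 (0.48 without WT replicate 2). Between the lines CDKN1A was 0.036 without the EV library and -0.56 without the STAG2 library, and BTG2 was 0.0078 without WT replicate 2 and -0.77 without WT replicate 1. The cause was not tested. Genes called between the lines numbered 8313 to 12744, and members 5 to 8. For single genes in PF382, 288 values kept direction and side of the threshold, 49 lost it, 7 gained it and 2 changed sign. No paired analysis was possible because the labels give the groups no shared replicate numbers. Depth limits GADD45G in PF382 and TP53INP1 in MOLT-14 most.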

Other observations

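SESN2, a p53 target that restrains growth signalling, fell in STAG2KO and was chosen after its values were seen. It had 11.8 ± 0.764 CPM in STAG2KO (SD, n = 3), against 46.6 ± 33.8 CPM in WT (SD, n = 2), and the log2 change was -2.01 (edgeR adjusted p 0.0157). The WT libraries differed widely, at 70.5 and 22.6 CPM, and both lay above the STAG2KO libraries. ISG20, a nuclease related to AEN, fell to 8.53 ± 1.12 CPM in STAG2KO, against 16.9 ± 4.35 CPM in WT (edgeR adjusted p 0.0172), the direction opposite to that of AEN and ISG20L2. The remaining partners called higher were PCNA, the replication clamp, with a log2 change of 0.86, CNOT7, the deadenylase that BTG2 binds, with 0.73, MAP3K4 with 0.52 and CDK2 with 0.44. Some of these missed the threshold with upper-quartile scaling and with protein-coding genes only.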
